A study of Homo sapiens with 4 samples.

Results

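A pair of paralogous clusters in the human genome holds 6 FOX genes, and 5 of these could be followed on the arrays analysed here. FOXC1, FOXF2 and FOXQ1 lie together on chromosome 6, and FOXC2, FOXF1 and FOXL1 lie together on chromosome 16. Probe sets were taken where the array annotation carried a gene's symbol, gene identifier or RefSeq transcript, out of 33297 probe sets in all, of which 21214 carried a gene symbol. FOXF2, FOXQ1, FOXC2, FOXF1 and FOXL1 each had 1 probe set, shared with no other symbol. FOXC1 was matched to 0 probe sets by symbol, identifier or transcript, so its level is not analysed here and no check of the labels by the transfected gene was made.

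The cells were MDA-MB-231, a human breast cancer line of basal-like and mesenchymal character, grown in medium with 10% fetal bovine serum. They were transfected, with a lipid reagent, with a FOXC1 expression plasmid or with the control vector, and 2 samples of each group were hybridised to Affymetrix human gene arrays (4 arrays). The labels call the samples of a group biological replicates; with nothing on separate transfections, p-values measure the spread between these samples, which may be technical. Neither the promoter of the plasmid, nor whether the cells were pools or clones, nor the time after transfection is given in the sources used here.

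Forkhead proteins bind DNA through a winged helix domain that is nearly the same across the family, so that different members can bind similar sites. FOXC1 and FOXC2 act in mesoderm, blood vessels and the eye, and FOXC1 is known as a marker of basal-like breast cancer. FOXF1 and FOXF2 act in the mesenchyme around gut and lung and respond to Hedgehog signals, as does FOXL1 in gut mesenchyme. FOXQ1 is known from hair and stomach lining, is raised in several carcinomas and can repress the E-cadherin gene CDH1. The comparison asks which of these genes differ in level between cells given the FOXC1 plasmid and cells given the vector.

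The median array signal lay between 489 and 512. Among 8 genes known to be high in this line, such as VIM and CD44, the mean signals ran from 5098 to 16648. Of 7 genes expected to be dim in it, ESR1, PGR, CDH1 and TFF1 had mean signals from 97.7 to 293, whereas EPCAM (840), GATA3 (847) and the keratin KRT19 (4190) had means above the median array signal, which goes against that expectation. These 3 epithelial genes were called lower in FOXC1 cells (log2 -0.58 for EPCAM, -0.24 for KRT19 and -0.17 for GATA3). The summed signal of 6 fibroblast markers was 1780 and 1833 in vector and 1826 and 1897 in FOXC1 arrays, that of 6 endothelial markers was 2941 and 3171 in vector and 2277 and 2299 in FOXC1 arrays, where PECAM1 and KDR passed the test as lower, and that of 4 leukocyte markers was 9036 and 9056 in vector and 9404 and 9689 in FOXC1 arrays. Most of the leukocyte sum came from CD68 (mean signal 8702), while PTPRC, which defines leukocytes, had a mean of 78.4. PTPRC (log2 0.47), CD68 (log2 0.07) and the fibroblast marker DCN (log2 0.63) were called higher in FOXC1 cells. The part of these markers in the results below was not tested.

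FOXQ1 was lower in FOXC1 cells. Its signal was 2021 and 2095 on the vector arrays and 1507 and 1492 on the FOXC1 arrays. Both FOXC1 arrays lay below both vector arrays, by more than the spread within either group. The mean went from 2058 ± 52.2 to 1500 ± 10.0 (SD, n = 2), a 1.37-fold fall. On the log2 scale the change was -0.45 ± 0.05 (SE), and the 95% confidence interval for the level in FOXC1 cells was 0.685 to 0.780 of that in vector cells. The limma adjusted p was 8.09e-08, with Benjamini-Hochberg adjustment over 21214 probe sets. All log2 values and folds here compare FOXC1 with vector on log2(signal + 16), where the 16 damps the noise of dim probe sets.

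FOXQ1 was the 1 gene called among the 5 measured cluster genes. Over all 18417 genes with a probe set of their own 31.4% were called in either direction (15.9% higher and 15.5% lower), so that 1 of 5 is no more than the share found in genes at large. With each array centred on its median the split of called probe sets moved from 3422 higher and 3136 lower to 2062 higher and 3773 lower, and FOXQ1 stayed called (log2 -0.49). A called fall at least as large as that of FOXQ1 was found in 3.36% of the genes (618 of 18417).

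**Figure D1:**
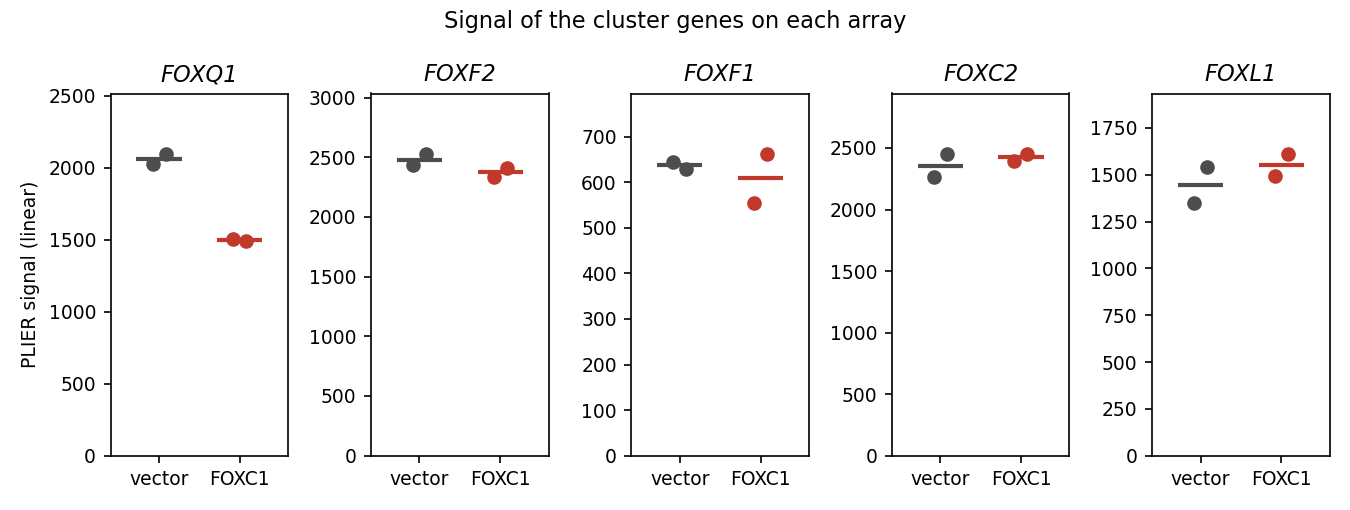
PLIER signal on a linear scale (y axis, from 0, a separate scale per gene) of FOXQ1, FOXF2, FOXF1, FOXC2 and FOXL1 on 2 vector arrays (grey) and 2 FOXC1 arrays (red); points are arrays and lines are group means. FOXQ1 drops from 2021 and 2095 to 1507 and 1492, while the points of FOXF1, FOXC2 and FOXL1 overlap between the groups.

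FOXF2, the next gene of the chromosome 6 cluster, did not pass the test. Its signal was 2433 and 2529 on the vector arrays and 2337 and 2409 on the FOXC1 arrays. The FOXC1 arrays lay just below the vector arrays, an order found in 26.4% of all genes. The means were 2481 ± 67.8 and 2373 ± 50.9 (SD, n = 2), and the log2 difference was -0.06 ± 0.04 (SE; limma adjusted p = 0.262). The 95% confidence interval, 0.902 to 1.01 of the vector level, leaves out a fall as large as that of FOXQ1.

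None of the 3 genes on chromosome 16 passed the test either, and each had overlapping groups. Groups that did not overlap were thus found in 2 of the 5 cluster genes, FOXQ1 and FOXF2, and in 63.5% of all genes. FOXC2, the closest paralog of FOXC1 and a factor of lymphatic vessels and of mesenchymal change in carcinoma, had signals of 2260 and 2452 on the vector and 2397 and 2449 on the FOXC1 arrays. Its log2 difference was 0.04 ± 0.04 (SE; limma adjusted p = 0.527), with a 95% confidence interval of 0.966 to 1.10 of the vector level. The higher vector array lay above both FOXC1 arrays.

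FOXF1 was the dimmest of the 5, with 44.5% of the annotated probe sets dimmer than it. Its signals were 645 and 630 on the vector arrays and 555 and 662 on the FOXC1 arrays. The spread within the FOXC1 group (609 ± 75.7, SD, n = 2) spanned both vector arrays. The log2 difference was -0.07 ± 0.08 (SE; limma adjusted p = 0.549), with a 95% confidence interval of 0.851 to 1.07 of the vector level. Its sign depended on 1 array, since the log2 difference was 0.05 without FOXC1 replicate 1 and -0.19 without FOXC1 replicate 2.

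FOXL1 had signals of 1351 and 1543 on the vector arrays and 1492 and 1612 on the FOXC1 arrays. One FOXC1 array lay between the vector arrays and the other above them. The log2 difference was 0.10 ± 0.06 (SE; limma adjusted p = 0.21), with a 95% confidence interval of 0.986 to 1.17 of the vector level. Without vector replicate 2, the higher of the vector pair, FOXL1 was called higher (log2 0.20, limma adjusted p = 0.0418), which made 2 of 5 cluster genes called. Without vector replicate 1 its log2 difference was 0.01.

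FOXQ1 was also set against its paralogs within each array, which takes out any factor shared by the probe sets of an array. The log2 ratio of FOXQ1 to FOXF2 was -0.27 and -0.27 on the vector arrays and -0.63 and -0.69 on the FOXC1 arrays. The ratio moved by -0.39 for FOXF2, -0.38 for FOXF1, -0.49 for FOXC2 and -0.55 for FOXL1. In each of the 4 ratios the FOXC1 arrays lay below both vector arrays. The difference between the group means was larger than the spread within either group in each. FOXQ1, the gene that fell, is in all 4 ratios, so they restate that 1 fall and are no separate evidence. The exact permutation test over arrays (two-sided) gave p = 0.333 for each, which is the smallest value that 2 arrays against 2 allow, so that this test says nothing for or against an unequal change. A model-based test of the ratios was not run.

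**Figure D2:**
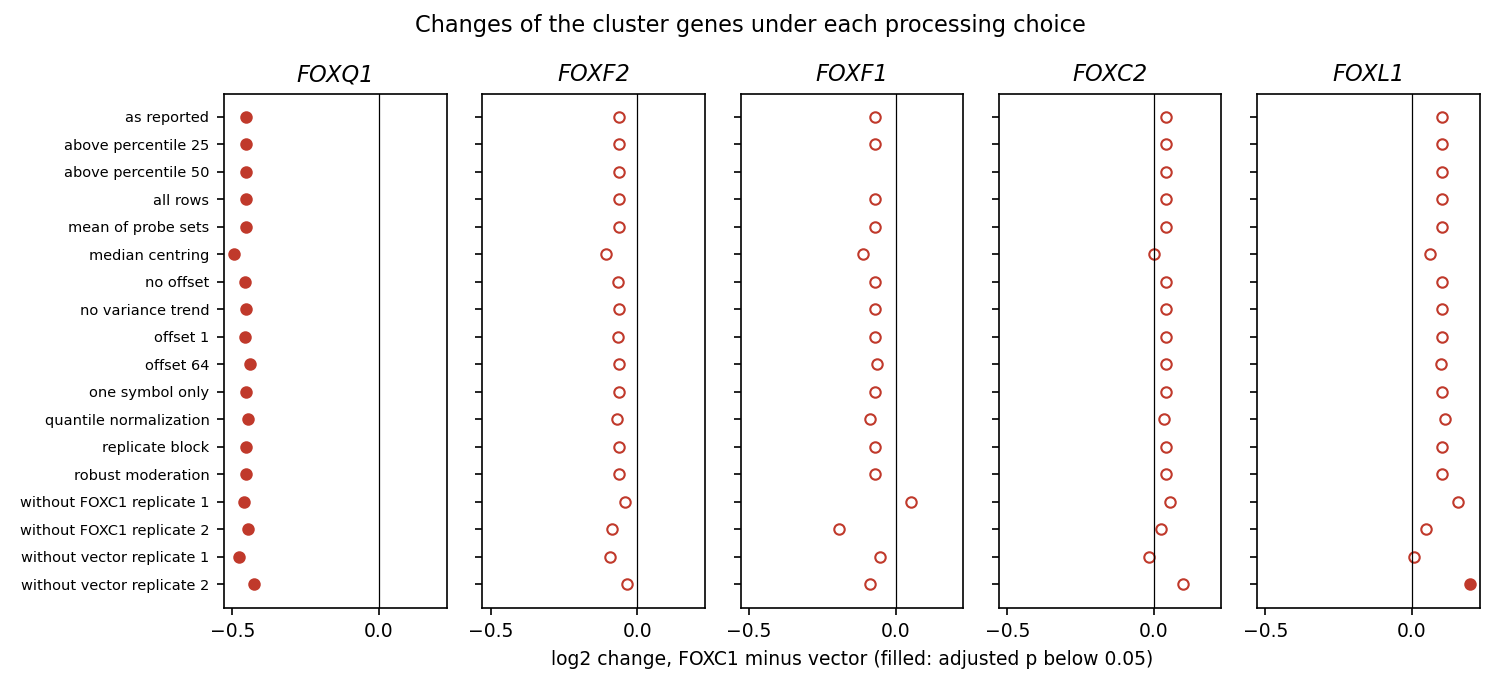
Log2 change, FOXC1 minus vector (x axis), of each cluster gene (panels) as reported and under each processing choice (rows); filled points have an adjusted p below 0.05. FOXQ1 stays between -0.49 and -0.43 and filled in all 17 alternatives, FOXL1 is filled once (0.20), and FOXF1 has no point for probe sets above the 50th percentile because its probe set is dimmer than that.

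The 250 bases upstream of the gene starts of FOXQ1, which fell, and of its neighbour FOXF2, which did not pass, are shown because a forkhead factor was transfected and forkhead proteins share a core recognition sequence. They come from RefSeq on GRCh38.p14, plus strand, at chr6:1311848-1312097 for FOXQ1 and chr6:1389326-1389575 for FOXF2, written 5′ to 3′ and ending at the base before the annotated start. Capitals mark matches, on either strand, to the forkhead core, spelled GTAAACA, or the same with A as the first base, C as the second, or both.
FOXQ1: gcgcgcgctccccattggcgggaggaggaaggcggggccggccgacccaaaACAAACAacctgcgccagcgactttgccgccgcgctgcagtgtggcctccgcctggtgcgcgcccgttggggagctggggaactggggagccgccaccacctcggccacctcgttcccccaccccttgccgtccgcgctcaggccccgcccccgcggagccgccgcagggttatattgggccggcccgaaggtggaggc
FOXF2: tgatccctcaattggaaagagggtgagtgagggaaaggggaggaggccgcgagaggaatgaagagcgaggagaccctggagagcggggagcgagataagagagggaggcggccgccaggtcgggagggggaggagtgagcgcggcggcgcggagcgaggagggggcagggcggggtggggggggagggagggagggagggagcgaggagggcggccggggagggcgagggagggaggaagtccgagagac

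The FOXQ1 window held 1 match, ACAAACA on the plus strand, 199 to 193 bases upstream of the start. The FOXF2 window held 0 matches. Of 35114 windows of 250 bases upstream of annotated genes 13.3% held at least 1 of the 4 spellings, and 4.56% held ACAAACA. Both windows were rich in G and C, with 74% for FOXQ1 and 70.8% for FOXF2 against a median of 58% over all windows. A match of these letters is a description and says nothing of binding. The window of FOXC1, not shown, also held 0 matches, with 76.8% G and C. FOXC2, FOXF1 and FOXL1, the other cluster genes measured, had no window in the set used. These few windows therefore cannot tie a match to a fall.

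Most genes that flank the clusters, like most genes on the arrays, did not pass the test. The 8 nearest genes on each side with a probe set of their own were taken in chromosome order, as far as the arm allowed, plus genes lying inside a cluster. Around the chromosome 6 cluster 3 of 12 genes fell and 0 rose, with a median log2 change of -0.02, beside 0.03 over all genes. That is 25% called, beside 31.4% of all genes (15.9% higher and 15.5% lower). The genes next to the cluster, the DNA damage checkpoint gene HUS1B on one side and GMDS, an enzyme of GDP-fucose synthesis, on the other, did not pass (log2 -0.02 and -0.08). The 3 falls lay farther off, beyond 4 genes that did not pass. They were the granzyme B inhibitor SERPINB9 (1.94-fold lower, 1251 and 1181 on the vector arrays, 620 and 619 on the FOXC1 arrays), the neutrophil protease inhibitor SERPINB1 (log2 -0.12) and the noncoding RNA LINC01011 (log2 -0.21). The limma adjusted p of SERPINB9 was 6.37e-11, and its call held in all 17 alternatives. The call of SERPINB1 was lost in 2 alternatives and that of LINC01011 in 6 of 16.

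Around the chromosome 16 cluster 3 of 18 genes rose and 1 fell, with a median log2 change of 0.00. That is 22.2% called, also below the share in all genes. The fall was in GSE1 (1.36-fold, from 1416 and 1432 to 1042 and 1049; limma adjusted p = 8.1e-07), which held in all 17 alternatives. The rises were in the DNA replication gene GINS2 (log2 0.09), the interferon regulatory factor IRF8 (log2 0.23) and the amino acid transporter SLC7A5 (log2 0.14). They lost their calls in 7, 6 and 1 alternatives. MTHFSD and FLJ30679, which lie between FOXF1 and FOXC2, had log2 differences of -0.01 and 0.01 and did not pass. In both regions together 7 of 30 genes were called (23.3%), beside 31.4% of all genes.

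**Figure D3:**
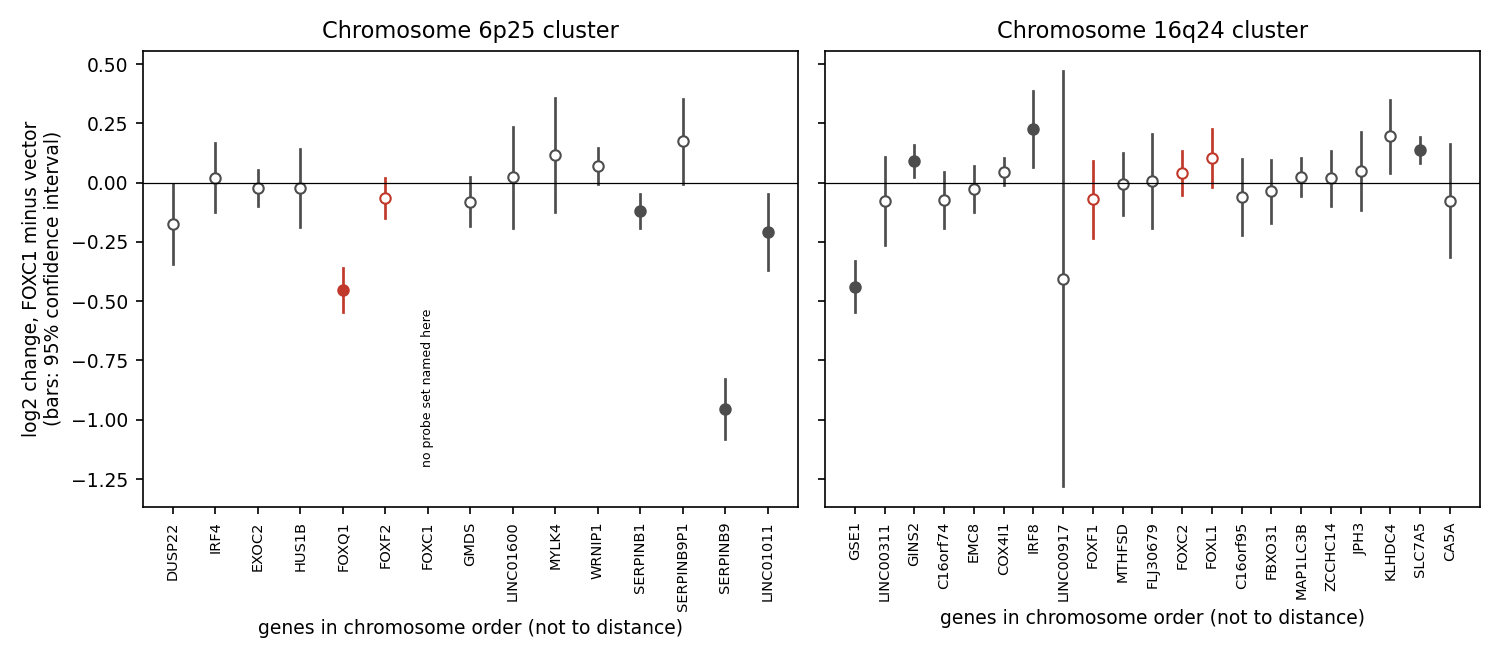
Log2 change, FOXC1 minus vector (y axis), of the cluster genes (red) and flanking genes (grey) in chromosome order (x axis, not to distance), with 95% confidence intervals from limma; filled points have an adjusted p below 0.05. FOXQ1 at -0.45 stands beside flanking genes near 0, and SERPINB9 at -0.96 is the lowest point among the genes plotted around the chromosome 6 cluster.

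The other forkhead genes moved in both directions. Of 43 genes listed 34 had a probe set of their own, and 7 fell and 4 rose, with a median log2 change of 0.05. The 11 of 34 called (32.4%) are near the 31.4% of all genes. FOXA1, a pioneer factor of luminal breast cells, was the only one of them with a called change of at least 1.5-fold, which 3.02% of all genes had. Its signal was 540 and 556 on the vector arrays and 199 and 212 on the FOXC1 arrays, a 2.55-fold fall. The epithelial genes EPCAM, KRT19 and GATA3 were lower too, as given above, and their part in the fall of FOXA1 was not tested. FOXQ1, with its 1.37-fold fall, stood between FOXP2 (log2 -0.46) and FOXO4 (log2 -0.44), both named after their values were seen. The rises were small, from log2 0.14 for FOXK1 to 0.19 for FOXJ1. FOXK1 and FOXJ1 lost their calls in 6 and 7 alternatives, FOXK2 (log2 0.15) and FOXB1 (log2 0.19) in 2 and 3. Of the falls, FOXJ2 (log2 -0.16) and FOXP4 (log2 -0.14) lost theirs in 3 and 5.

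The count of forkhead genes called depended on the arrays, the scaling and the variance model, and so did the count over all probe sets. As reported, 3136 of all named probe sets were called lower and 3422 higher. With median centring 7 forkhead genes fell and 0 rose, beside 3773 lower and 2062 higher over all named probe sets. Without a variance trend 5 forkhead genes fell and 0 rose, beside 1964 lower and 1703 higher. The forkhead counts therefore do not show a shift particular to this family. FOXA1, FOXA2, FOXN3, FOXO4 and FOXP2 kept their calls in every alternative in which they were tested, all of them lower. FOXP2 was dim (mean signal 228) and was tested in 15 alternatives.

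**Figure D4:**
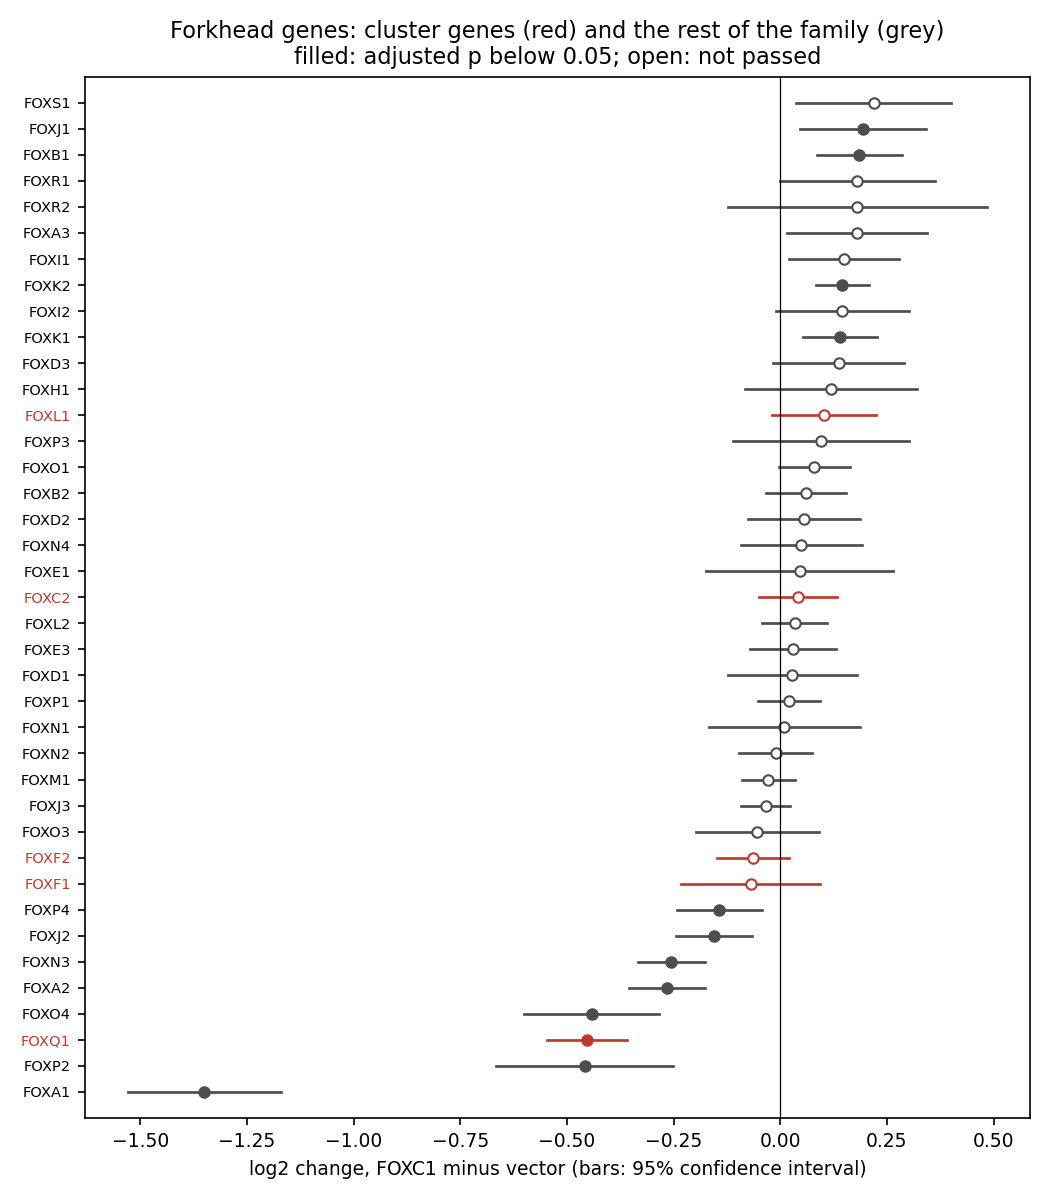
Log2 change, FOXC1 minus vector (x axis), with 95% confidence intervals from limma, of the 5 cluster genes (red) and 34 other forkhead genes (grey), ordered by change; filled points have an adjusted p below 0.05. FOXA1 at -1.35 stands apart, and FOXQ1 lies next to FOXP2 and FOXO4.

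Genes that act upstream or downstream of the cluster genes were set beside them. CDH1, which FOXQ1 can repress, had signals of 270 and 277 on the vector arrays and 273 and 287 on the FOXC1 arrays. The log2 difference was 0.03 (95% confidence interval -0.16 to 0.22). CDH1 is one of the dim genes given above, so its flat value says little about the lower FOXQ1. SNAI1 and TWIST1, transcription factors of mesenchymal change known to act upstream of FOXC2, had log2 differences of -0.14 (limma adjusted p = 0.2) and 0.09 (limma adjusted p = 0.334), and neither passed. Of Hedgehog readouts, PTCH1 (log2 -0.06) and GLI1 (log2 -0.06) did not pass, like the Hedgehog responsive FOXF1, FOXF2 and FOXL1. GLI1 was dim (mean signal 242), so its value says little. These 2 genes do not stand for the pathway, since HHIP and others moved, as given next.

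Other Hedgehog genes did move. Of 13 measured, 3 rose and 5 fell, with a median log2 change of -0.06. That is 61.5%, beside 31.4% of all genes, in a list that was also drawn up with earlier results known and is no independent evidence. The inhibitor HHIP rose from 251 and 252 to 5497 and 5263, while the co-receptor CDON fell from 961 and 1018 to 486 and 432. GLI3 (log2 -0.43), SUFU (log2 -0.41) and the co-receptor BOC (log2 -0.43) were also lower, as was the ligand SHH (log2 -0.28). BOC was dim (mean signal 250). SHH lost its call in 3 of 16 alternatives. The rises besides HHIP were in IHH (log2 0.20) and GAS1 (log2 0.19), whose calls were lost in 7 and 6 alternatives, median centring among them.

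Of 49 measured genes that earlier work ties to the cluster genes as targets, partners or regulators, 11 rose and 12 fell, with a median log2 change of 0.06. That is 46.9%, beside 31.4% of all genes, in a list drawn up with earlier results of these data known, so it is no independent evidence. The chemokine CXCL8, at 5753 and 5688 in vector and 11538 and 13480 in FOXC1 arrays, and the angiogenic factor VEGFA, at 6812 and 6548 in vector and 2085 and 2069 in FOXC1 arrays, were the 2 called with a change of at least 2-fold. HEY2 (log2 0.51), a Notch effector tied to FOXC1 and FOXC2 in vessels, and GATA2 (log2 0.28), which acts alongside FOXC2 in lymphatic valves, rose. HEY2 does not stand for the Notch genes of the list. DLL4 (log2 0.16), NOTCH1 (log2 0.06), HEY1 (log2 0.04) and HES1 (log2 -0.08) did not pass. Larger than the change of HEY2 were also the rises of MMP7 (log2 0.98), NEDD9 (log2 0.97) and WNT5A (log2 0.78). The falls of KDR (log2 -0.81) and CXCR4 (log2 -0.59) were larger too, so the genes tied to vessels moved in both directions. PROX1, the factor that sets lymphatic identity, was dim and did not pass (124 and 135 in vector, 121 and 128 in FOXC1 arrays). The fibroblast growth factor receptor FGFR1 (log2 -0.67) and the bone factor RUNX2 (log2 -0.67) fell. These calls of CXCL8, VEGFA, HEY2, GATA2, FGFR1 and RUNX2 held in every alternative in which the gene was tested. HEY2 and MMP7 were dim (mean signals 248 and 168) and were tested in 15 alternatives, not in those limited to brighter probe sets.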

How the data were processed

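RNA (100 ng per sample) of 2 FOXC1 and 2 vector samples was measured on Affymetrix HuGene arrays. The deposited values are linear signal intensity per probe set, which the authors made with PLIER in Affymetrix Expression Console, per the labels; what normalization or background step was used, and in which versions, is not given here. Since dim probe sets can have signals close to 0, 16 was added before log2. The number of arrays limits the precision.

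Of 33297 probe sets 19460 carried 1 symbol in the platform annotation, 1754 several and 12083 none; symbols were updated by gene identifier. The brightest probe set with 1 symbol stood for a gene (18417 genes). The 21214 probe sets with a symbol entered limma 3.58.1 (R 4.3.3; lmFit, eBayes with a variance trend, two-sided; 2 residual and 18.1 prior degrees of freedom), and genes were called at a Benjamini-Hochberg adjusted p of 0.05. On simulated data of 21214 probe sets, 46% of log2 changes of 0.25 and 94% of 0.5 were recovered. Of changes of 1 and of 2, 100% were recovered, and there were 3 false calls. The simulation changed only 50 probe sets per size, against 31.4% of genes called here, with independent normal noise. Its rates are therefore not those of the real comparison.

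Cluster genes and lists were chosen with earlier results of these data known. Named were all cluster genes, forkhead genes changed at least 1.5-fold, list genes changed at least 2-fold, called flanking genes and known ties of each member; CXCL8 and VEGFA met the 2-fold limit, and the other genes tied to the cluster were chosen after their values were seen. A planned change of FOXC1 itself, and genes most like it, could not be computed without a named probe set. The alternatives were other offsets, normalizations, filters, variance models, rows, a replicate block and leaving out each array.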

Additional observations from a re-analysis of the deposited data

Results flagged for a closer look

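The comparison used only probe sets with a gene symbol. Among the 12083 without one, in a fit over all rows, 1303 were called (10.8%), and 51 changed at least 2-fold, 38 higher and 13 lower in FOXC1 cells, a signal outside the genes reported on. The largest rises were in probe set 8021635 (2191 and 2212 on the vector arrays, 13876 and 13551 on the FOXC1 arrays, 6.19-fold) and probe set 8116591 (992 and 996 on the vector arrays, 5696 and 5566 on the FOXC1 arrays, 5.59-fold). The largest falls were in probe set 7896716 (2000.06 and 2031 against 580 and 566, 3.45-fold) and probe set 8060997 (2842 and 2772 against 927 and 902, 3.03-fold). The annotation used gives no gene for these 4 probe sets, and which transcripts they measure was not determined. Whether any of the unnamed probe sets that rose measures the transfected FOXC1 was not determined either, so none of these values serves as a check of the labels.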

How the results depend on the processing

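The fall of FOXQ1 was called in all 17 alternatives, with log2 changes from -0.49 to -0.43 (-0.48 to -0.43 when 1 array was left out). FOXF2, FOXF1 and FOXC2 were called in none of theirs, with log2 differences from -0.11 to -0.04, -0.19 to 0.05 and -0.02 to 0.10; FOXL1 ranged from 0.0071 to 0.20. The sign of FOXC2 turned with median centring (-0.000607) and without vector replicate 1 (-0.017), and that of FOXF1 without FOXC1 replicate 1 (0.054). FOXL1 was called without vector replicate 2 (0.20), so that leaving out 1 array gave 1 to 2 called cluster genes. Leaving out 1 array gave 6 to 15 called forkhead genes, 4 to 8 flanking genes and 4682 to 6830 probe sets. Without a variance trend the counts were 3667 probe sets, 5 forkhead and 3 flanking genes. Forkhead genes called were 7 with median centring, flanking genes 4 over all rows, and target genes 14 above the 50th percentile of signal, where 23 were tested. With the replicate number as a block 7311 probe sets were called against 6558. A block cannot move a log2 change in this balanced layout, so FOXQ1 kept its log2 of -0.45 by construction. Alternatives that altered only the filter, the rows or the variance model likewise left each log2 change as it was. They could move only the adjusted p. Same-numbered arrays did not deviate together (correlation across probe sets -0.01). That value shows no shared effect by number. It cannot tell whether the samples were prepared in pairs, which the labels do not state. FOXC1 has no value under any alternative. The causes of these shifts were not tested, and dim probe sets limit what can be seen of small changes.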
